A study of Homo sapiens with 9 samples.

Results

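The transcriptomes of castration-resistant prostate cancer cells that lacked OGDHL were compared after they had been given either a form of OGDHL without its mitochondrial targeting sequence (dMTS) or eGFP, a fluorescent protein that served as the control. The cells were 16D, a line derived from LNCaP prostate cancer cells. In every culture OGDHL had been knocked out with CRISPR, the cells had been adapted to enzalutamide for 6 weeks, and they were kept at 10 µM enzalutamide, an antiandrogen. Both constructs were delivered by transduction, and the dMTS form was resistant to the knockout. The comparison used 6 of the 9 libraries of the series, 3 with dMTS and 3 with eGFP. The 3 libraries of cells given full-length OGDHL entered the filter on low values and, where named, a fit that borrowed their spread. No cells with an intact OGDHL gene were among the samples, and the labels leave unsaid whether replicates came from separate cultures or transductions. P-values therefore stand for the spread among these libraries, which may be technical.

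OGDHL is a paralog of OGDH, the E1 subunit of the 2-oxoglutarate dehydrogenase complex. Together with the E2 subunit DLST and the E3 subunit DLD, the complex turns 2-oxoglutarate into succinyl-CoA in the tricarboxylic acid (TCA) cycle of the mitochondrial matrix. Proteins made in the cytosol reach the matrix through an N-terminal targeting sequence that is removed after import, and the dMTS form lacks this sequence. 2-Oxoglutarate is also a co-substrate of dioxygenases in the cytosol and nucleus, among them histone demethylases and prolyl hydroxylases. Where the protein was found in these cells was not measured here.

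The values were TPM (a length-scaled share of transcripts that sums to 1000000 in each library) in a table of 36650 genes. Each library was rescaled so that the median log2 ratio over the tested genes was 0. Levels below are rescaled TPM, given as mean ± SD (n = 3), and fold changes are differences of log2(rescaled TPM + 1), dMTS over eGFP, with their standard error (SE). The deposited TPM had been divided by the genomic span of each gene, introns included, so levels are comparable between libraries but not as transcript numbers between genes. The steps in the low values gave an estimated depth of 86.3 to 121 M reads (M, 1000000) per library. Mitochondrially encoded genes took 54.9% of the TPM in dMTS replicate 2, 62.9% and 65.7% in the other dMTS libraries and 62.1% to 66.0% with eGFP, and the size factor of dMTS replicate 2 was 1.20 against 0.906 to 1.04 for the other libraries. The nuclear RNA MALAT1, given here in TPM as deposited and not rescaled, measured 1374 in dMTS replicate 1, 816 in replicate 2, 878 in replicate 3 and 1155 to 1228 with eGFP. dMTS replicate 1 correlated less with the other dMTS libraries (r = 0.990 and 0.994 across genes) than they did with each other (r = 0.996). Its r with the eGFP libraries was 0.993 to 0.994, so it lay as close to the control group as to its own. Of the 18 luminal prostate markers 16 passed the filter, KLK3, HOXB13, FOXA1, KRT8 and KRT18 among them, and GATA3 and PSCA stayed below 1 TPM in all 6 libraries. The basal markers in the table stayed below 1 TPM in all 6 libraries, and so did the neuroendocrine markers CHGA and SYP.

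OGDHL itself was the gene with the largest change. Its level was 1.21, 1.19 and 1.24 in the 3 eGFP libraries and 83.2, 146 and 127 in dMTS replicates 1, 2 and 3. The groups did not overlap, and dMTS replicate 1 held the least OGDHL of the dMTS libraries. The mean rose from 1.21 ± 0.0214 to 118 ± 32.1 rescaled TPM, a log2 fold change of 5.72 (SE 0.20) with an adjusted p of 0.00158. The exact two-sided permutation test of the level gave p = 0.1, the smallest that 3 against 3 libraries allow. The gene lies on the minus strand of chromosome 10 (chr10:49734641-49762380, GRCh38). A value per gene cannot tell transcripts of the construct from those of the edited gene, nor show that the targeting sequence is missing.

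Across the transcriptome the changes were small. Of 13231 genes with at least 1 TPM in at least 3 of the 9 libraries, 224 were called at an adjusted p under 0.05, which is 1.69%. Of these, 81 (0.612%) were higher and 143 (1.08%) lower with dMTS, and all 224 had groups that did not overlap. The absolute log2 fold change was under 0.5 in 177 of them and over 1 in 5. Groups did not overlap for 4306 genes (32.5%), 2016 higher (15.2%) and 2290 lower (17.3%), and 3321 genes (25.1%) had an unadjusted p under 0.05. The calls lay close to the threshold, with adjusted p-values of at least 0.0194 for those other than OGDHL and over 0.03 for 203. With TPM as deposited, 46 genes (0.348%) were called, 11 higher (0.0831%) and 35 lower (0.265%), of which 20 were also called after rescaling, and the share of calls that were higher was 23.9% against 36.2%. When the full-length libraries also informed the spread, 1242 genes (9.39%) were called, 440 higher (3.33%) and 802 lower (6.06%). Without dMTS replicate 1, 1863 genes were called, the 224 among them with the same sign, and without any 1 of dMTS replicates 2 and 3 and eGFP replicates 1, 2 and 3 only OGDHL remained. All 224 kept their sign in each of these fits.

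**Figure D1:**
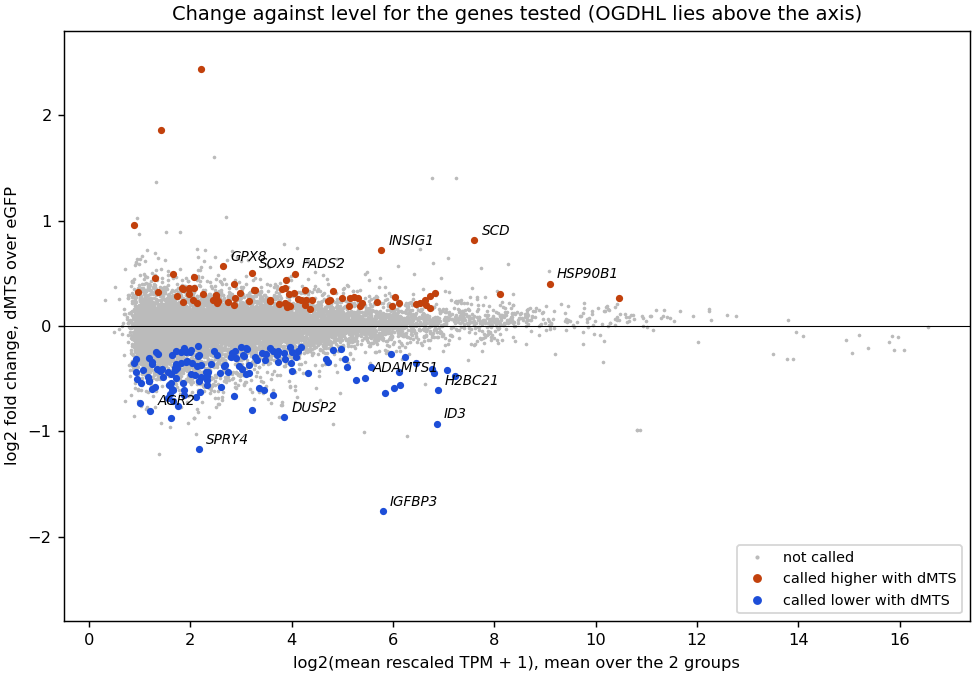
Log2 fold change, dMTS over eGFP, against log2(mean rescaled TPM + 1) for the 13231 genes tested, 1 point per gene. Orange points are the 81 genes called higher and blue points the 143 called lower. OGDHL, at 5.72, lies above the axis, and most called genes lie within 0.5 of 0.

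Among called protein-coding genes IGFBP3, SPRY4, ID3 and DUSP2 had the largest decreases in log2(rescaled TPM + 1). Adding 1 before the log makes the changes of genes of low level smaller. IGFBP3, which encodes a secreted protein that binds insulin-like growth factors, was at 86.3, 86.7 and 80.0 in the eGFP libraries and at 33.5, 20.0 and 21.1 in dMTS replicates 1 to 3. All dMTS libraries were far below all eGFP libraries, and replicate 1 was the highest of them. The mean level was 3.39-fold lower with dMTS (84.3 ± 3.71 against 24.9 ± 7.48), with a log2 fold change of -1.76 (SE 0.19) and an adjusted p of 0.0355. SPRY4, a feedback inhibitor of growth factor receptor signalling to ERK, was at 5.38, 5.35 and 4.94 with eGFP and 2.19, 1.62 and 1.52 with dMTS. Its groups also stood apart, with a log2 fold change of -1.17 (SE 0.09) and an adjusted p of 0.0196. DUSP2, a phosphatase that switches off ERK in the nucleus, went from 17, 18 and 17.9 to 10.7, 8.64 and 8.43, and the log2 fold change was -0.87 (SE 0.09). ID3, which blocks the DNA binding of basic helix-loop-helix factors, was at 142, 155 and 155 with eGFP and 98.4, 71.1 and 69.5 with dMTS, a log2 fold change of -0.93 (SE 0.14). In each of these 4 genes dMTS replicate 1 lay nearest to the eGFP libraries. All 4 were called with TPM as deposited as well. IGFBP3 lies at chr7:45912245-45921875 and SPRY4 at chr5:142310427-142326456 on chromosomes 7 and 5 (GRCh38).

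Further decreases were found in genes of lower level. AGR2, a disulfide isomerase of secretory epithelia, fell from 1.93 ± 0.0804 to 0.68 ± 0.173 rescaled TPM (adjusted p = 0.031). GPER1, a membrane receptor for oestrogen, fell from 1.49 ± 0.0329 to 0.512 ± 0.21 (adjusted p = 0.0442). As a ratio of mean levels, AGR2 was 2.83-fold and GPER1 2.91-fold lower, more than ID3 (1.89-fold) and DUSP2 (1.90-fold). SAMD11 fell from 4.34 ± 0.3 to 2.35 ± 0.417, and MICAL1, an oxidase that takes apart actin filaments, from 3.48 ± 0.0584 to 1.85 ± 0.419. KRTAP5-1, which encodes a keratin-associated protein, fell from 2.63 ± 0.153 to 1.26 ± 0.201. The rest of the 12 called genes with the largest decreases were SNORA73B, a small nucleolar RNA inside a host gene (-0.71), and the pseudogenes MRPS18AP1 (-0.76) and BPTFP1 (-0.66), with log2 fold changes in brackets. Reads of such copies may belong to their parent or host gene, so these 3 are uncertain.

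Among called protein-coding genes the largest increases in log2(rescaled TPM + 1) after OGDHL were in the lipid genes SCD and INSIG1. A long noncoding RNA and a pseudogene with no symbol in the table, and the U6 RNA copy named below, were called with larger fold changes from low levels. SCD, the desaturase that makes monounsaturated fatty acids, was at 145, 133 and 139 in the eGFP libraries and 204, 269 and 269 in the dMTS libraries. The lowest dMTS value, in replicate 1, was above the highest eGFP value. Its log2 fold change was 0.81 (SE 0.11) with an adjusted p of 0.0442, and the mean level was 1.78-fold higher. INSIG1, which holds the sterol sensor SCAP in the endoplasmic reticulum, was at 40.6, 37.8 and 41.6 with eGFP and 59.1, 68.3 and 72.8 with dMTS. Here too dMTS replicate 1 was the lowest of its group and the groups did not overlap, with a log2 fold change of 0.72 (SE 0.08) and an adjusted p of 0.0399. Both genes were called higher with TPM as deposited. FADS2, the first desaturase of polyunsaturated fatty acid synthesis, rose from 12.8 ± 0.248 to 18.5 ± 1.6 (adjusted p = 0.0409).

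Other increases had smaller levels or folds. GPX8, a peroxidase of the endoplasmic reticulum membrane, went from 4.04, 4.0 and 4.12 to 6.06, 6.74 and 6.65, a log2 fold change of 0.57 (SE 0.04) with an adjusted p of 0.0196. SOX9, a transcription factor of epithelial progenitors, went from 6.5, 6.56 and 6.9 to 9.06, 10.0 and 10.5, a log2 fold change of 0.50 (SE 0.06). DUSP4, like DUSP2 a nuclear phosphatase of MAP kinases, rose from 1.63 ± 0.0519 to 2.71 ± 0.272, opposite to DUSP2. BEX1 rose from 11.7 ± 0.562 to 16.1 ± 0.836, and ANP32E, a chaperone that removes the histone variant H2A.Z, from 5.25 ± 0.112 to 7.25 ± 0.343. HSP90B1, the HSP90 of the endoplasmic reticulum, was at 493, 464 and 449.5 and then 590.1, 629 and 642, with a log2 fold change of 0.40 (SE 0.05). CKS1BP7, a processed pseudogene (0.46), and RNU6-9, one of many near-identical U6 copies (1.86), complete the 12 and are uncertain for the same reason as the pseudogenes above. Leaving out any 1 library other than dMTS replicate 1 ended the call of each named gene but OGDHL.

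**Figure D2:**
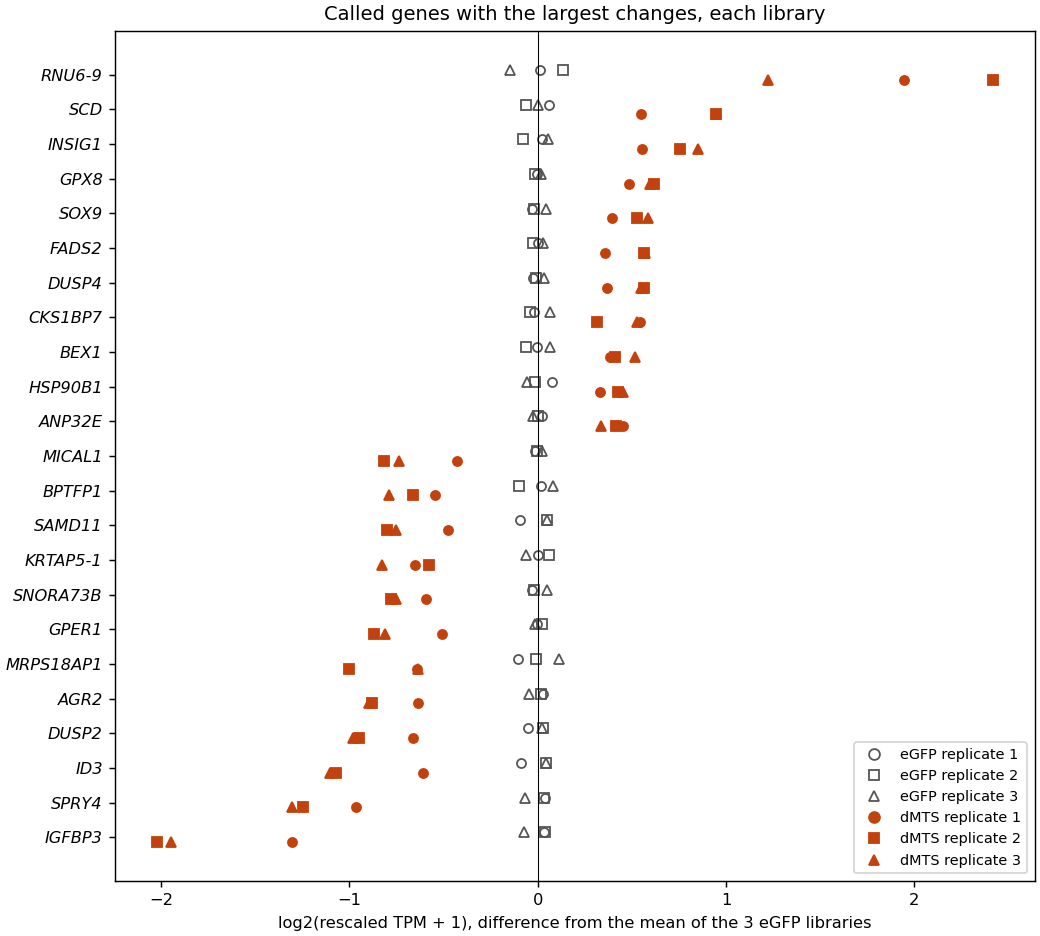
Difference of log2(rescaled TPM + 1) from the mean of the 3 eGFP libraries for the called genes with the largest changes, OGDHL left out. Open grey symbols are eGFP libraries and filled orange symbols dMTS libraries, with the symbol giving the replicate. No dMTS library overlaps an eGFP library in these 23 genes, and in IGFBP3, SPRY4, ID3, DUSP2, SCD and INSIG1 dMTS replicate 1 (circles) lies nearest to eGFP.

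All calls in the lists of cholesterol and fatty acid metabolism were higher with dMTS. These pathways are driven by the SREBP transcription factors, which SCAP escorts out of the endoplasmic reticulum when sterols are low and which INSIG1 holds back. Of 28 cholesterol genes tested, 5 were called higher and 0 lower, against 0.612% and 1.08% of all genes, and 15 lay higher without overlap and 1 lower, against 15.2% and 17.3%. The list's median log2 fold change was 0.13, beside 0.01 for all genes tested, and 0.19 beside 0.06 with TPM as deposited. By library the median difference from eGFP was 0.09, 0.14 and 0.16 in dMTS replicates 1, 2 and 3. Besides INSIG1 the calls were 4 enzymes of the pathway. MSMO1, the sterol C4-methyl oxidase, rose from 11.3 ± 0.382 to 14.7 ± 0.589 (log2 fold change 0.35 (SE 0.04)), and CYP51A1, the lanosterol demethylase, from 5.99 ± 0.243 to 7.7 ± 0.302 (0.32 (SE 0.04)). HSD17B7, a sterol ketoreductase, rose from 2.79 ± 0.0705 to 3.48 ± 0.088 (0.24 (SE 0.03)), and FDPS, the farnesyl diphosphate synthase, from 23.6 ± 0.387 to 28.3 ± 1.19 (0.25 (SE 0.04)). TM7SF2, a sterol reductase, was the 1 member that lay lower without overlap (-0.25 (SE 0.06), adjusted p = 0.0759). FDPS and TM7SF2 were picked for mention after their values were seen.

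Of 20 fatty acid genes tested, 3 were called higher and 0 lower (0.612% and 1.08% of all genes). Without overlap 10 lay higher and 3 lower (15.2% and 17.3% of all genes), and the median log2 fold change was 0.11 (0.17 as deposited). Among 3 desaturases SCD and FADS2 were called, and FADS1 was at 8.4 ± 0.307 with eGFP and 10.3 ± 0.796 with dMTS (adjusted p = 0.0771). ACSL3, which activates fatty acids for lipid droplets, rose from 7.49 ± 0.419 to 9.78 ± 0.358 (log2 fold change 0.34 (SE 0.05)), and its paralog ACSL1 was at 14.5 ± 0.659 and 23 ± 3.24 (adjusted p = 0.0511). Of 7 synthesis genes none was called. FASN, the fatty acid synthase, was at 102 ± 0.304 and 142 ± 22.2 (adjusted p = 0.0885), and the regulator SREBF1 at 24.9 ± 0.857 and 29.5 ± 1.13 (adjusted p = 0.0563). ELOVL1, which elongates very long fatty acids, lay lower without overlap (-0.24 (SE 0.05), adjusted p = 0.0696) and was called lower in the fit with all 9 libraries. The 7 oxidation genes had a median of 0.06, none was called, and ACADVL, which starts the oxidation of very long chains, lay lower without overlap (-0.24 (SE 0.07), adjusted p = 0.101). As deposited, INSIG1 and SCD were the calls of the 2 lists. The fatty acid genes named here that were not called were picked after their values were seen, and so were SSR4 and CARTPT, given further on.

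All calls in the list of folding genes of the endoplasmic reticulum were higher with dMTS. The unfolded protein response raises folding capacity in this compartment through the sensors IRE1, PERK and ATF6 and the factors XBP1 and ATF6, which act on promoters of chaperone genes. Of 33 genes tested, 6 were called higher and 0 lower, against 0.612% and 1.08% of all genes, and 21 lay higher without overlap and 1 lower, against 15.2% and 17.3%. The median log2 fold change was 0.16 (0.23 as deposited, where no member was called), and 0.14, 0.16 and 0.21 by library. In the fit with all 9 libraries 15 members were called higher and 0 lower. Of 11 chaperones 3 were called. Besides HSP90B1 these were HSPA5, the HSP70 of this compartment, at 1306, 1268 and 1246 with eGFP and 1485, 1523 and 1581 with dMTS, and MANF, at 248, 243 and 244 and 300.4, 297 and 313. The groups did not overlap in either gene, and the log2 fold changes were 0.26 (SE 0.04) and 0.31 (SE 0.03). Of 7 disulfide isomerase genes in the list 2 were called. AGR2, a disulfide isomerase counted with the luminal markers, was called lower (-0.81 (SE 0.08)). PDIA4 went from 101, 99.6 and 100.4 to 121, 128 and 126 (log2 fold change 0.31 (SE 0.03)) and PDIA6 from 33.6, 32.6 and 32.2 to 38.7, 40.6 and 40.5 (0.28 (SE 0.03)). Of 5 sensors and factors only XBP1 was called, at 63.2, 63.7 and 63.7 and 71, 75.2 and 75.8, with a log2 fold change of 0.22 (SE 0.03) and an adjusted p of 0.0499. The genes of the sensors themselves, ERN1 (IRE1), EIF2AK3 (PERK) and ATF6, had log2 fold changes of 0.04, 0.05 and 0.07 and were not called. None of 10 genes of endoplasmic reticulum degradation was called, although 6 lay higher without overlap. HSPA5 and XBP1 were picked for mention after their values were seen.

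The promoters of several of these genes carry the endoplasmic reticulum stress element (ERSE), to which ATF6 and XBP1 bind together with the CCAAT factor NF-Y. The element was searched on both strands as CCAAT, any 9 bases and CCACG, from 250 bases before to 50 after the gene start in the RefSeq promoters (GRCh38.p14), where 46 of the 52 called list members had an entry. It includes the NF-Y motif CCAAT. It was found in 6 of 30 promoters of the folding list (20.0%), in 12 of 7773 tested genes with a promoter (0.154%) and in 22 of all 27305 promoters (0.0806%). The 6 were HSPA5, HSP90B1, XBP1, CALR, CANX and CRELD2, of which the first 3 were called. CCAAT alone was in 80.0% of the folding list and 39.2% of the tested genes. The 3 called genes with the element are shown 5′ to 3′ on the strand of the gene, with the fixed bases of the element in capitals, because they are the members of the list in which both the change and the element were seen.
HSPA5: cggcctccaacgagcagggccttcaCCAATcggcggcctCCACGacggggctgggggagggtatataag
HSP90B1: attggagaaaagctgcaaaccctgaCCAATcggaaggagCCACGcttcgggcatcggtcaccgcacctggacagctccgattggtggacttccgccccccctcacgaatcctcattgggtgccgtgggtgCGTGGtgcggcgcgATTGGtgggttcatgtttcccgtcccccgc
XBP1: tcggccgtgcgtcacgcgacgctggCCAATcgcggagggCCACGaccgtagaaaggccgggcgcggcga
They lie at chr9:125241366-125241434 (minus strand), chr12:103930191-103930364 (plus strand) and chr22:28800578-28800646 (minus strand). HSPA5 and XBP1 hold 1 element each, and HSP90B1 holds 2. The second lies on the other strand, so the printed strand shows it as CGTGG and then ATTGG. A match is a description of the letters, and binding was not measured. The element is known from promoters of such genes, so its share in the list is not an independent result.

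All calls among genes that bring proteins into and through the secretory pathway were higher with dMTS. Of 38 tested, 3 were called higher and 0 lower (0.612% and 1.08% of all genes). Without overlap 23 lay higher and 0 lower (15.2% and 17.3% of all genes). The median log2 fold change was 0.12 (0.18 as deposited, with 0 calls). Of 12 genes of the translocon and signal peptidase, SSR3 rose from 58.1 ± 2.26 to 70.6 ± 2.26 (log2 fold change 0.28 (SE 0.04)) and SPCS3 from 31.4 ± 1.17 to 37.9 ± 1.28 (0.26 (SE 0.04)), while SSR4, the 1 member of the list with a negative log2 fold change, was not called (-0.13 (SE 0.05)). Of 7 genes of N-glycosylation, OSTC rose from 13 ± 0.109 to 14.9 ± 0.0996 (0.18 (SE 0.03)). None of 6 cargo receptors and 13 coat genes was called, with medians of 0.19 and 0.06.

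The integrated stress response, in which ATF4 raises amino acid synthesis and uptake, had 5 calls higher and 0 lower among 27 genes. Calls included, 16 lay higher without overlap and 0 lower, against 15.2% and 17.3% of all genes. Among all genes 0.612% were called higher and 1.08% lower. The median log2 fold change was 0.18 (0.25 as deposited, with 0 calls), and 0.13, 0.15 and 0.15 by library. The amino acid enzymes held 3 of the calls. PSAT1, the transaminase of serine synthesis, was at 16, 16 and 15.6 with eGFP and 20.1, 21 and 20.0 with dMTS, a log2 fold change of 0.34 (SE 0.03) (adjusted p = 0.0272). ASNS, the asparagine synthetase, was at 23.2, 22.9 and 23.1 and 27.3, 27.1 and 27.5 (0.23 (SE 0.03)). MTHFD2, a mitochondrial folate enzyme, was at 13, 13.1 and 12.5 and 15.7, 16.5 and 16.1 (0.30 (SE 0.03)). In all 3 the dMTS libraries lay close together and above the eGFP libraries, replicate 1 included. TRIB3, a feedback inhibitor of the response, rose from 4.09 ± 0.164 to 5.2 ± 0.122, and CEBPG, a partner of ATF4, from 17 ± 0.283 to 19.6 ± 0.14. ATF4 itself was at 307 ± 9.94 and 352 ± 10.1 (adjusted p = 0.068), and DDIT3 (CHOP) at 12.9 ± 0.375 and 14.9 ± 0.798 (adjusted p = 0.0871). The secreted factor GDF15 had the largest difference in the list, 11.8 ± 1.6 against 20.6 ± 5.13, but was not called (adjusted p = 0.092). PPP1R15A, ATF3 and CHAC1 had log2 fold changes of -0.14, -0.01 and 0.07 and were not called. CEBPG and the members named here that were not called were picked after their values were seen.

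An ATF4-type element, searched on both strands as TGATG, any base and AA, was in 5 of 22 promoters of the list (22.7%), 1.44% of the tested genes with a promoter and 3.67% of all promoters. The 5 were ASNS, ATF3, CHAC1, SLC7A1 and SLC3A2, of which ASNS was called. This element too is known from promoters of such genes, so its share in the list is not an independent result. The ASNS element, in capitals, is printed from the minus strand at chr7:97872444-97872501 (GRCh38.p14) as the 1 called gene of the list that holds it.
ASNS: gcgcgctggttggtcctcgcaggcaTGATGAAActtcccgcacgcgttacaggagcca
A sterol regulatory element, searched as TCAC, any base and CCAC, was in 1 of 22 cholesterol promoters and 1.2% of the tested genes with a promoter, and in none of the 5 called members of that list.

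**Figure D3:**
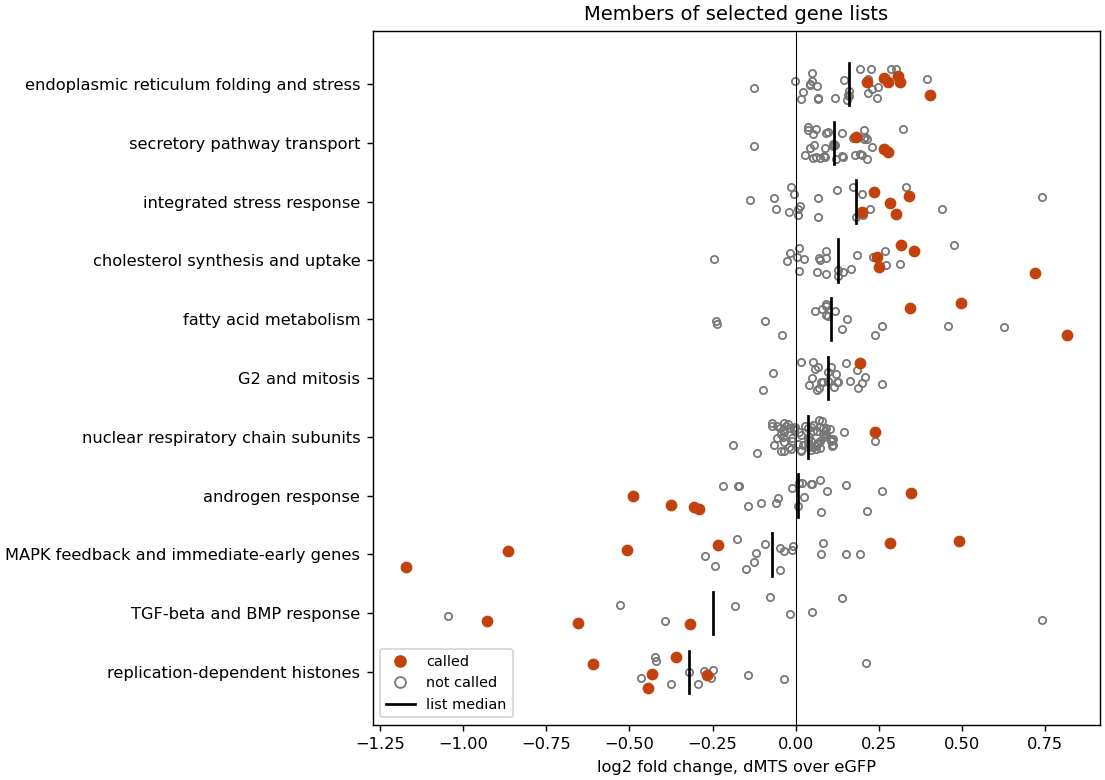
Log2 fold changes, dMTS over eGFP, of the tested members of 11 gene lists, 1 point per gene, spread vertically only for legibility. Filled orange points are called genes, open grey points were not called, and the black bar is the list's median. In the top 5 lists every called member lies to the right of 0, and in the histone and TGF-beta and BMP lists every called member lies to the left.

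The 4 ID genes, which respond to BMP signals through SMAD factors, were all lower without overlap, as were 17.3% of all genes. ID3 was called (above), and ID2 fell from 14.2 ± 0.219 to 8.69 ± 1.41 (log2 fold change -0.66 (SE 0.10)). ID1 had the largest difference of the family, 102 ± 6.79 against 50.6 ± 16.6 (-1.04 (SE 0.21)), but its adjusted p was 0.0669, and ID4 was at 8.96 ± 0.325 and 5.97 ± 1.26 (adjusted p = 0.0798). With TPM as deposited ID1 and ID3 were the called members. Of 12 genes tested in the whole TGF-beta and BMP list, 0 were called higher and 3 lower, against 0.612% and 1.08% of all genes. The list's median log2 fold change was -0.25 (-0.21 as deposited). The third call was SMAD9, a SMAD of the BMP branch, which fell from 1.12 ± 0.0653 to 0.704 ± 0.0706. The receptors BMPR2 and TGFBR1 were not called (-0.08 and 0.14), nor was the antagonist BAMBI (-0.02). ID1, ID4 and the genes not called were picked for mention after their values were seen.

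Feedback and immediate-early genes of the MAP kinase pathway had calls in both directions, but more members lay lower than higher. Of 22 tested, 2 were called higher and 4 lower, against 0.612% and 1.08% of all genes. Without overlap 3 lay higher and 10 lower, against 15.2% and 17.3% of all genes, and 16 had a negative log2 fold change. The median log2 fold change was -0.07 (-0.02 as deposited). Among sprouty genes SPRY4 fell, while SPRY1 and SPRY2 were not called (-0.18 and 0.15). Among DUSP phosphatases DUSP2 fell and DUSP4 rose, and DUSP1 fell from 12.4 ± 0.441 to 10.4 ± 0.168. Within the JUN family JUNB fell from 44.5 ± 3.33 to 31 ± 2.66 (log2 fold change -0.51 (SE 0.08)), JUND rose from 94.3 ± 4.26 to 115 ± 1.46 (0.28 (SE 0.04)), and JUN was not called (-0.15). FOS and EGR1 had log2 fold changes of -0.27 and -0.12 and were not called. In the insulin-like growth factor axis only 3 genes reached the filter, IGFBP3 and, without a call, IGFBP2 (-0.05) and the receptor IGF2R (0.02). JUNB, DUSP1 and the members not called were picked after their values were seen.

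All calls among replication-dependent histone genes were lower with dMTS. Their mRNAs end in a stem-loop and mostly lack a poly(A) tail, so a library enriched for mRNA holds only a part of them. Of 17 tested, 0 were called higher and 5 lower, against 0.612% and 1.08% of all genes, 12 lay lower without overlap and 1 higher, against 17.3% and 15.2%, and the median log2 fold change was -0.32 (-0.25 as deposited, with 0 calls). By library the median was -0.34, -0.34 and -0.29, so dMTS replicate 1 was as low as the others. H2BC21 was at 143, 144 and 137 with eGFP and 97.2, 89.8 and 90.4 with dMTS, a log2 fold change of -0.61 (SE 0.04) with an adjusted p of 0.0194. H2BC12 was at 125, 129 and 132 and 91.8, 97.1 and 94 (-0.44 (SE 0.04)), and the groups of both genes stood well apart. H4C8 (-0.43 (SE 0.06)), H2AC6 (-0.36 (SE 0.04)) and H2BC5 (-0.27 (SE 0.04)) were also called. A further 5 histone genes outside the list were called lower and 0 higher, namely H2AC17, H2AC18, H2AC19, H3C6 and H3-7, which were looked up after the calls were known. Histone copies are near-identical, so reads may be split between them.

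Few cell cycle genes were called, as was so for all genes (1.69%). Among 27 genes of G2 and mitosis 1 was called higher and 0 lower, against 0.612% and 1.08% of all genes. The median was 0.10. Without overlap 17 of the 27 lay higher and 0 lower, against 15.2% and 17.3% of all genes, and 5 were called higher in the fit with all 9 libraries. CCNB1, the mitotic cyclin, was at 58.1, 58.1 and 58.1 and 68.4, 65.5 and 66.1 (log2 fold change 0.19 (SE 0.03)). MKI67 was at 27.4, 25.4 and 21.7 and 21.9, 34 and 26.5, with overlapping groups and a 95% interval of -0.29 to 0.53 for the log2 fold change. No gene of 32 in DNA replication and S phase was called, and the median was 0.01. POLE, the leading-strand polymerase, had the smallest p there (-0.25 (SE 0.05), adjusted p = 0.0603).

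**Figure D4:**
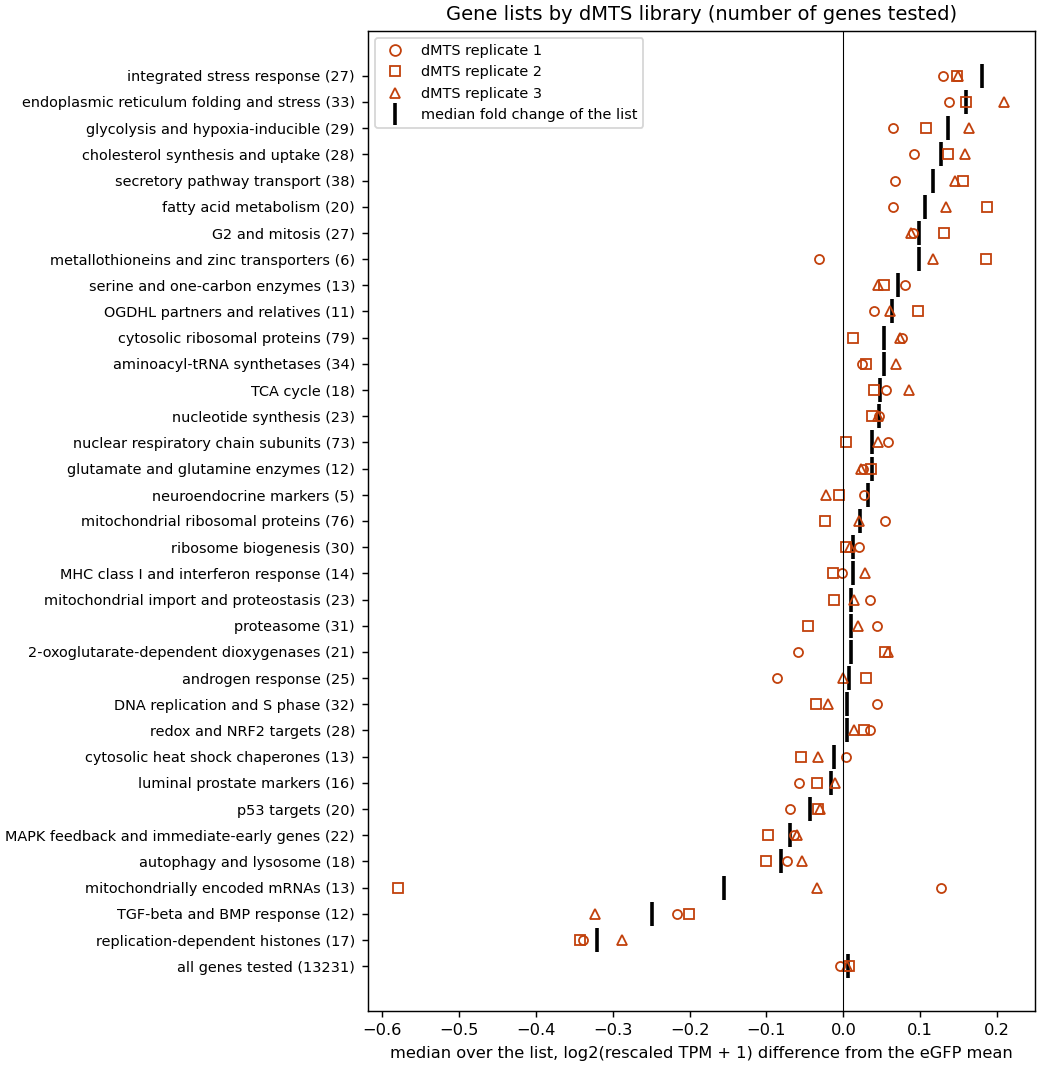
Median, over the tested genes of each list, of the difference of log2(rescaled TPM + 1) from the eGFP mean in dMTS replicate 1 (circles), 2 (squares) and 3 (triangles). The black bar is the median of the genes' fold changes, which can lie outside the 3 library medians, and the number tested is in brackets. Of the lists below 0 in all 3 libraries, the histone and TGF-beta and BMP lists lie lowest. The autophagy and lysosome, MAPK feedback, p53 target and luminal lists lie nearer to the zero line. The mitochondrially encoded mRNAs are at -0.58 in replicate 2 only.

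Androgen response genes had calls in both directions. Of 25 tested, 1 was called higher and 4 lower, against 0.612% and 1.08% of all genes. Without overlap 4 lay higher and 8 lower, against 15.2% and 17.3% of all genes. The list's median was 0.01 (0.07 as deposited, with 0 calls). The prostate-specific antigen gene KLK3 was at 1155, 1196 and 1273 with eGFP and 1137, 1027 and 1118 with dMTS, a log2 fold change of -0.14 (SE 0.06) with an adjusted p of 0.196. KLK2 was at 24.5, 23.5 and 24.9 and 22.1, 19 and 21.3 (-0.22 (SE 0.06), adjusted p = 0.101). Both lay lower without overlap after rescaling, but not as deposited, and neither was called. TMPRSS2 (0.05 (SE 0.08), 95% interval -0.14 to 0.24) and FKBP5 (0.02 (SE 0.05), -0.10 to 0.14) had overlapping groups. The called members were ADAMTS1, a secreted protease, which went from 49.1, 51.9 and 49.4 to 34.7, 35.9 and 35.6 (-0.49 (SE 0.03), adjusted p = 0.0194), the ubiquitin ligase HERC3 (-0.38 (SE 0.05)), PMEPA1, an inhibitor of TGF-beta signalling (-0.29 (SE 0.04)), the transcription factor MAF (-0.31 (SE 0.04)), and UGT2B15, which inactivates androgens and rose from 2.19 ± 0.0686 to 3.06 ± 0.143.

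Of 16 luminal identity genes 1 was called higher and 3 lower, against 0.612% and 1.08% of all genes. Without overlap 3 lay higher and 6 lower, against 15.2% and 17.3% of all genes. HOXB13 (-0.08 (SE 0.03)), FOXA1 (0.02 (SE 0.03)) and KRT8 (-0.09 (SE 0.05)) were not called, and their 95% intervals were -0.16 to 0.00, -0.04 to 0.09 and -0.20 to 0.03. KRT18 was at 131, 138 and 146 and 157, 154 and 157 (adjusted p = 0.0964). KRT8 and KRT18 overlap on opposite strands of chromosome 12, and the strand used in counting is not given in the sources used here. Among the calls GATA2, a zinc finger transcription factor, was at 51.2, 53.2 and 54.4 with eGFP and 42.6, 38.5 and 39.6 with dMTS (-0.39 (SE 0.05)). GRHL2, an epithelial transcription factor, went from 3.33 ± 0.0785 to 2.7 ± 0.045, and the third decrease was AGR2. EPCAM, a surface adhesion molecule of epithelia, rose from 11.4 ± 0.227 to 13.4 ± 0.0949 (0.21 (SE 0.03)). Of the neuroendocrine list 5 genes were tested and none called after rescaling. CARTPT, which encodes a neuropeptide precursor, had the largest difference, 4.51 ± 0.261 with eGFP and 2.28 ± 0.92 with dMTS (-0.78 (SE 0.19), adjusted p = 0.0841), and was called lower with TPM as deposited and in the fit with all 9 libraries. HES6, a transcription factor of neural precursors, was at 3.65, 4.13 and 4.8 and 6.0, 7.8 and 7.32 (adjusted p = 0.057), and was called higher in the fit with all 9 libraries. Of 15 stromal, endothelial and immune markers only COL1A1 was tested, at 3.15 ± 0.191 and 2.38 ± 0.431 (adjusted p = 0.13), and the others found in the table stayed below 1 TPM in all 6 libraries.

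No gene of the partners and relatives of OGDHL was called, beside 1.69% of all genes. OGDH, the main E1 subunit, was at 7.71, 7.83 and 7.46 with eGFP and 7.51, 9.0 and 8.61 with dMTS, with overlapping groups and a 95% interval of -0.05 to 0.27 for the log2 fold change. DHTKD1, the paralog that acts on 2-oxoadipate, had 0.06 (SE 0.04) (-0.04 to 0.16), and DLST 0.02 (SE 0.04) (-0.08 to 0.12). DLD was at 14.8, 14.7 and 13.5 and 15.1, 15.9 and 15.5 (adjusted p = 0.211). None of the 11 partners and relatives was called, and DLAT of the pyruvate dehydrogenase complex had the smallest p (0.13 (SE 0.03), adjusted p = 0.092). None of 18 TCA cycle and anaplerotic genes was called, and at the share of all genes so short a list would hold few calls or none. PCK2, the mitochondrial phosphoenolpyruvate carboxykinase, was at 17.7 ± 0.748 and 20.5 ± 0.715 (adjusted p = 0.0732). Of 12 genes of glutamate and glutamine metabolism 2 were called higher, PSAT1 and ASNS, and 1 lower (0.612% and 1.08% of all genes). The decrease was in GPT, the alanine transaminase that links alanine with 2-oxoglutarate, at 4.32, 4.61 and 4.63 and 3.1, 2.37 and 2.33 (-0.62 (SE 0.09), adjusted p = 0.0442).

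Of 73 nuclear respiratory chain genes 1 was called, beside 1.69% of all genes. It was NDUFA5 of complex I, which rose from 9.98 ± 0.223 to 12 ± 0.262. None of 13 mitochondrially encoded mRNAs was called. Their median difference from eGFP was 0.13, -0.58 and -0.03 in dMTS replicates 1, 2 and 3, so the low value was that of 1 library. MT-ND4L was at 15557, 16475 and 18287 and 16291, 10844 and 13902 (adjusted p = 0.269). Of 21 genes of dioxygenases that use 2-oxoglutarate 1 was called, beside 1.69% of all genes. It was KDM6B, a demethylase of histone H3 lysine 27, which went from 16, 16.5 and 16.9 to 13.8, 13.7 and 13.6 (-0.25 (SE 0.03), adjusted p = 0.0409). The list's median was 0.01. Among 29 glycolytic and hypoxia-inducible genes 0 were called in either direction, beside 1.69% of all genes. Without overlap 13 lay higher and 1 lower, against 15.2% and 17.3% of all genes, and the median was 0.14 (0.20 as deposited). ERO1A, which oxidises disulfide isomerases, had the smallest p (0.19 (SE 0.04), adjusted p = 0.0662).

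Of 13 serine and one-carbon genes 3 were called higher and 0 lower, against 0.612% and 1.08% of all genes, PSAT1 and MTHFD2 among them. Without overlap 8 lay higher and 1 lower, against 15.2% and 17.3% of all genes. The remaining lists held few calls. Of 23 nucleotide synthesis genes 1 was called higher, and GPX8 was the call among 28 redox genes, beside 1.69% of all genes. No member was called among 34 aminoacyl-tRNA synthetases, 79 cytosolic and 76 mitochondrial ribosomal protein genes, 30 of ribosome biogenesis, 31 of the proteasome or 23 of mitochondrial import and proteostasis. Nor was one called among 13 cytosolic heat shock genes, 20 p53 targets, 18 autophagy and lysosome genes, 14 MHC class I and interferon genes, 6 metallothionein and zinc genes or 4 mesenchymal genes. At the share of all genes, lists of these sizes would also hold few calls or none. In the autophagy and lysosome list all 6 autophagy factors lay lower without overlap, and of the 12 lysosome genes 3 lay lower and 1 higher, against 17.3% and 15.2% of all genes. The kinase ULK1 was at 5.41, 5.76 and 5.78 and 4.88, 4.64 and 4.69 (adjusted p = 0.0566). The p53 target CDKN1A, an inhibitor of cyclin-dependent kinases, was at 51.1, 54.1 and 55.2 and 43.4, 44.9 and 46.7 (adjusted p = 0.0576), and the inducible chaperone HSPA1A at 1.15 ± 0.162 and 0.704 ± 0.146 (adjusted p = 0.092). The mitochondrial chaperonin HSPD1 was at 152, 148 and 146 and 166, 162 and 167 (adjusted p = 0.0689).

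The calls are given by RNA class, and differences between classes were not tested. Among 8858 protein-coding genes 65 were called higher and 95 lower (0.734% and 1.07%), and among 1988 long noncoding RNAs 7 and 34 (0.352% and 1.71%). Of 2128 pseudogenes 8 were called higher and 11 lower (0.376% and 0.517%), and 13.4% lay higher and 5.17% lower without overlap. The median genomic span of called protein-coding genes was 16.0 kb in both directions and that of genes not called 24.0 kb.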

How the data were processed

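Messenger RNA was sequenced with a stranded kit as read pairs, per the labels' protocols. The authors deposited 1 table of TPM. Per the submitters' processing notes the aligner STAR and the build GRCh38 were used, with no version; the quantifier and its annotation are not given in the sources. Columns were matched to samples by title. Gene length in the table equals genomic span, which leaves out many long genes under a TPM filter and makes their log2 fold changes small. Genes with at least 1 TPM in at least 3 of 9 libraries were tested. The 6 libraries compared were rescaled by median-ratio size factors, and log2(TPM + 1) was fitted with limma 3.58.1 (R 4.3.3) without covariates, with the eBayes trend, two-sided p-values and Benjamini-Hochberg adjustment over all genes tested. A called gene has an adjusted p under 0.05. The steps were tested on simulated data. Read counts were only estimated, and counting intervals are therefore left out.

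Named genes were fixed markers, the 12 most changed called genes per direction that had a symbol, no overlap and at least 1 TPM in the higher group, and up to 4 called members per list with the smallest adjusted p, or the member with the smallest p. The members, the 38 lists, the scaling and the tests were chosen with earlier results of these data known. Some genes are in several lists. Alternatives were TPM as deposited, TPM without mitochondrially encoded genes and OGDHL, other pseudocounts and filters, all 9 libraries, a replicate block, robust eBayes, array weights, voom on estimated reads and leaving out each library. As deposited values without each library or with the block were added after seeing the data. Promoters came from RefSeq (GRCh38.p14). A few genes of the lists are counted but not reported here by name.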

Additional observations from a re-analysis of the deposited data

How the results depend on the processing

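The count of 224 calls (81 higher, 143 lower) depended strongly on the setting, while all 224 genes kept their sign in every setting in which they were tested. It was 46 (11 and 35) as deposited, 37 (15 and 22) without the filter, 1242 (440 and 802) with all 9 libraries, 1292 (443 and 849) with voom on estimated reads of at least 10 in at least 3 libraries, and 5600 (2539 and 3061) with array weights by limma's gene-by-gene method, since the default did not converge. It was 318 with a mean TPM of at least 5 (122 and 196), 241 (58 and 183, so 24.1% higher against 36.2%) with TPM recomputed without mitochondrially encoded genes and OGDHL, 186 and 239 with a pseudocount of 0.1 and 5, and 169 with robust eBayes. Leaving out 1 library gave 1 to 1863 calls, 1 to 587 higher and 0 to 1276 lower, with 1863 without dMTS replicate 1 and 1 without any other library. As deposited, settings added after seeing the data, leaving out dMTS replicates 1, 2 and 3 gave 1007, 1 and 9 calls (657, 1 and 7 higher, 350, 0 and 2 lower), and eGFP replicates 1, 2 and 3 gave 203, 131 and 164 (123, 63 and 50 higher, 80, 68 and 114 lower). The labels number the replicates, but same-numbered libraries did not deviate together (r = -0.33, 0.08 and -0.08). Between libraries of different number r ranged from -0.36 to 0.36. Deviations sum to 0 within a group, so these values are bound to each other and cannot decide whether the numbers pair the libraries. With the replicate number as a block limma called 0 genes (2486 at an unadjusted p under 0.05), 0 higher and 0 lower, and 234 as deposited. The exact permutation p of OGDHL was 0.1 after rescaling, as deposited and with each library left out, the smallest each allows. Except where a setting tests fewer genes or libraries, the cause of these differences was not tested. At similar TPM the values of short genes rest on fewer estimated reads, with a mean of 13.8 for SNORA73B against 17239 for GRHL2.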

Other observations

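Several called genes outside the lists belonged to small families or neighbours, and they are given as values that were looked up after the calls were known. BEX1 (log2 fold change 0.44 (SE 0.05)), BEX2 (0.23 (SE 0.03)), BEX5 (0.35 (SE 0.05)) and TCEAL8 (0.21 (SE 0.03)), members of a gene cluster on the X chromosome, were all called higher with dMTS. PGRMC1 (0.21 (SE 0.03)) and its paralog PGRMC2 (0.20 (SE 0.03)), haem-binding membrane proteins that take part in sterol metabolism, were both called higher. NUS1, a subunit of the enzyme that makes the lipid carrier of N-glycosylation, was called higher (0.22 (SE 0.03)), and so was its pseudogene NUS1P2 (0.36 (SE 0.05)). RCN1 (0.31 (SE 0.03)), NUCB2 (0.30 (SE 0.04)) and CLGN (0.25 (SE 0.04)), which encode calcium-binding proteins or chaperones of the secretory pathway, were also called higher.

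Called lower outside the lists, and likewise looked up after the calls were known, were the laminin chains LAMC1 (-0.43 (SE 0.06)) and LAMA5 (-0.35 (SE 0.04)), the semaphorins SEMA6A (-0.49 (SE 0.06)) and SEMA3F (-0.28 (SE 0.04)) and the plexin PLXNB3 (-0.51 (SE 0.07)). In 4 loci a gene and its antisense or divergent transcript were both called lower. These were GATA2 (-0.39 (SE 0.05)) with GATA2-AS1 (-0.31 (SE 0.05)), GRHL2 (-0.23 (SE 0.03)) with GRHL2-DT (-0.36 (SE 0.06)), HOXC13 (-0.37 (SE 0.05)) with HOXC13-AS (-0.56 (SE 0.09)) and FAM111A (-0.43 (SE 0.05)) with FAM111A-DT (-0.29 (SE 0.04)). Whether counting used the strand is not given in the sources used here, so reads of such partners cannot be told apart.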
